A study of Mus musculus with 8 samples.

Results

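B-1a cells of the spleen that carried no surface IgM, sorted from mice lacking CTLA-4 in B cells, were compared with IgMhi B-1a cells of control mice. The comparison took 3 libraries of CKO IgMneg B-1a cells and 3 of control IgMhi B-1a cells out of 8 libraries, and every gene that reached 10 normalized counts in 2 or more of these 6, which was 10525 of 10783 genes. The 2 other libraries, of IgMhi B-1a cells from CKO mice, were not used. RNA was sequenced after removal of ribosomal RNA, and the values are normalized counts, the reads of a gene divided by 1 size factor per library.

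Control mice were *Ctla4*+/+, labelled wild type, and CKO mice were *Ctla4*fl/fl. All mice were on the Balb/c background, 2–3 months old, and carried 1 Cre allele that is active in B-lineage cells, controls included, so deletion follows the B lineage and not B-1a cells alone. Control IgMhi B-1a cells were sorted as IgMhi IgDlo/neg CD21lo/neg CD43+ CD5+ cells and CKO IgMneg B-1a cells as IgMneg IgDneg CD5+ CD43+ cells. Genotype, surface IgM, the IgD and CD21 gates and the separate breeding of the mice all differ between the groups in the same way. Their effects therefore cannot be told apart here. The comparison addresses the question how IgMneg B-1a cells, which the study describes in CKO mice, differ in gene expression from the ordinary B-1a cells of control mice.

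B-1a cells are self-renewing B cells of early ontogeny that express CD5, make natural antibody and respond to self antigens. CTLA-4 is an inhibitory receptor that binds CD80 and CD86, and it is best known from T cells. B cells that leave the resting state can enter the germinal center, where antibody genes are mutated and switched, become plasma cells that secrete antibody, or present antigen to T cells on MHC class II.

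The 6 libraries held 1404660 to 10289686 reads assigned to genes, a median of 31 to 332 for each gene, and the ribosomal precursor *Rn45s* took 4.62% to 25.1% of reads in controls and 7.53% to 8.48% in IgMneg libraries. Correlations of log2 values were 0.939 to 0.971 between control libraries and 0.937 to 0.971 between IgMneg libraries. All 17 pan B-cell markers tested were measured, with summed levels of 74173 to 75740 normalized counts in control and 74634 to 80487 in IgMneg libraries. These sums do not show single genes, of which 12 of 17 had a negative log2 fold change (median -0.09). In limma 4 lay above and 7 below control before adjustment (p under 0.05), where 6.64% and 6.95% of all genes did. After adjustment limma called 0, and DESeq2 called 1 above and 3 below. *Xist* was at 2001, 33.5 and 3.97 normalized counts in control and 2604, 3584 and 10.6 in IgMneg libraries, numbered 1, 2 and 3 in that order here and in all values that follow, and the Y-linked *Ddx3y* at 258, 771 and 686 normalized counts in control and 1.94, 0 and 615 in IgMneg libraries. Control library 1 thus holds reads of both, and *Xist* was high in 1 of 3 control and 2 of 3 IgMneg libraries, so sex was not balanced. Erythroid and platelet markers, 3 of 17 in the table, summed to 412 normalized counts in IgMneg library 3 and to 4.79 to 34.8 in the other 5 libraries. Myeloid markers, 17 of 25 in the table, summed to 1052 in IgMneg library 3 and to 293 to 742 in the others. The part of these cells in the results was not tested.

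Limma called few genes between the groups. In a limma fit to log2(normalized count + 1), 12 genes rose and 11 fell in IgMneg cells at an adjusted p under 0.05 (Benjamini-Hochberg over 10525 genes), 0.219% of genes tested in either direction, 0.114% upward and 0.105% downward. The groups did not overlap in any of the 23. Selection by a test on 3 libraries per group makes this likely, so it is a description and no further support. DESeq2 on the recovered reads called 60 genes higher (0.57%) and 59 lower (0.561%), and 21 of the 23 were among them, all but *Pirb* and *S100a6*. On the same reads edgeR called 29 genes and voom 24. Genes given below with a DESeq2 value under 0.05 that failed limma also failed voom. Among them only *Tbc1d9* passed edgeR (edgeR adjusted p = 0.0418). *Dntt* and *Gcsam*, given below with limma values, passed DESeq2 (adjusted p = 0.0297 and 0.00137) and edgeR (adjusted p = 0.0269 and 0.0242) but not voom. Both reached the filter only through IgMneg libraries, so these values are a description. Before adjustment, 699 genes (6.64%) lay higher and 732 (6.95%) lower at p under 0.05. Counts before adjustment in the lists below are to be read against these shares, and a count near them says nothing particular about a list. Libraries did not overlap in 1050 genes (9.98%) that were higher and 1028 (9.77%) that were lower in IgMneg cells. Over all genes the log2 fold change had a median of 0.01. The 23 calls became 13 (8 and 5) without control library 1, 47 (27 and 20) without IgMneg library 1, 12 (6 and 6) without IgMneg library 2 and 25 (8 and 17) without IgMneg library 3, and 10 of the 23 passed with each of the 6 libraries left out in turn. With the summed level of Y-linked genes as a covariate 104 genes passed, 16 of the 23 among them. All 23 called genes reached 10 normalized counts in at least 2 libraries of both groups. Of all genes tested, 207 reached it in 2 libraries only among IgMneg cells and 248 only among control cells, and such genes had to differ to be tested.

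**Figure D1:**
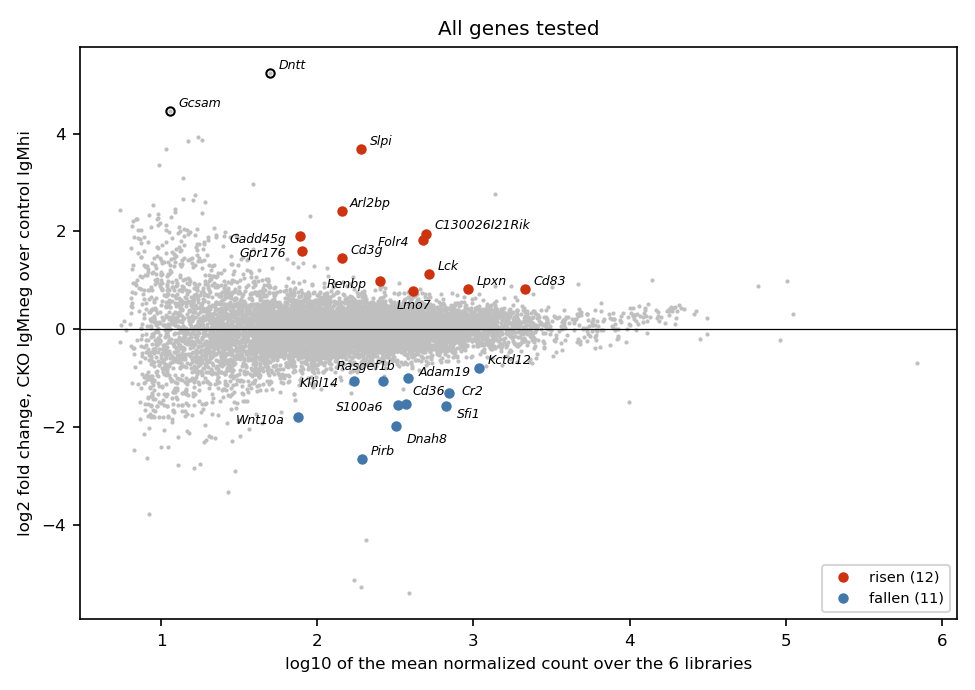
Log2 fold change of CKO IgMneg over control IgMhi B-1a cells against log10 of the mean normalized count, for 10525 genes. Red points are the 12 genes that rose, blue points the 11 that fell, and open circles mark *Dntt* and *Gcsam*, which had log2 fold changes of 5.24 and 4.46 and did not pass limma.

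The genes that rose include a protease inhibitor, 3 genes known from T cells and a marker of activated B cells. *Slpi* encodes the secretory leukocyte peptidase inhibitor (chromosome 2, 164179806 to 164214831 of mm9). It had 71.1, 14.4 and 13.7 normalized counts in control and 371, 183 and 493 in IgMneg libraries. Every IgMneg library lay above every control, although control library 1 lay well above the other controls. The log2 fold change was 3.67 (standard error 0.48, limma adjusted p = 0.00131), the largest of the 23. *Arl2bp*, whose product binds the small GTPase ARL2 (chromosome 8, 97190550 to 97198327), was at 40.0, 43.1 and 51.2 normalized counts in control and 261, 219.9 and 244 in IgMneg libraries. Its replicates lay close together, for a log2 fold change of 2.41 (standard error 0.22, limma adjusted p = 2.34e-05). *C130026I21Rik*, a gene with no named function (chromosome 1, 84989265 to 85267141), was at 220.1, 206 and 181 normalized counts in control and 643, 854 and 881 in IgMneg libraries, a log2 fold change of 1.95. Its span holds other annotated genes and pseudogenes, so its reads are uncertain in origin. *Gadd45g*, a growth arrest and DNA damage gene, rose by 1.90 on the log2 scale from 32.2 ± 8.81 to 122 ± 32.3 normalized counts (SD, n = 3 per group, limma adjusted p = 0.011). *Gpr176*, an orphan receptor gene, rose by 1.60, with 40.0, 33.5 and 43.2 normalized counts in control and 112, 121 and 126 in IgMneg libraries. *Renbp*, which encodes an N-acetylglucosamine epimerase, rose by 0.97. *Lpxn*, which encodes the adhesion adaptor leupaxin, rose by 0.82, and *Lmo7*, which encodes an actin-binding LIM protein, rose by 0.78. Under all 27 alternative settings, *Arl2bp*, *C130026I21Rik* and the fallen gene *Dnah8* passed, and *Lmo7* passed in the fewest of the 23, 14 of 27.

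*Folr4*, *Lck* and *Cd3g* rose together. *Folr4* encodes a folate receptor family protein of regulatory T cells, *Cd3g* a chain of the T-cell receptor complex, and *Lck* a Src-family kinase that T cells and B-1 cells both use. *Folr4* had 178, 254 and 196 normalized counts in control and 610.0, 809.9 and 802 in IgMneg libraries. *Lck* had 333, 297 and 356 normalized counts in control and 707, 642 and 801 in IgMneg libraries, and *Cd3g* had 73.4, 95.8 and 63.1 normalized counts in control and 184, 221 and 230.2 in IgMneg libraries. In each of the 3 genes the lowest IgMneg library was above the highest control. The log2 fold changes were 1.82 for *Folr4* (standard error 0.18, limma adjusted p = 2.89e-05), 1.12 for *Lck* (0.15, 0.00156) and 1.46 for *Cd3g* (0.22, 0.00535). The T-cell marker list has 24 genes, of which 9 are in the table and 3 rose, none fell and 6 did not pass, with a median log2 fold change of 1.12. Of the 9, *Cd28*, *Il7r* and *Tcf7* passed the filter only through the IgMneg libraries, so this median is a description. The 15 others, among them *Cd3d*, *Cd3e*, *Cd4*, *Cd8a* and *Zap70*, were not analysed here. The 9 genes summed to 1734 to 1987 normalized counts in control and 2785 to 3080 in IgMneg libraries. The costimulatory receptor gene *Cd28* was at 6.67, 4.79 and 3.09 normalized counts in control and 33.9, 13.5 and 48.1 in IgMneg libraries (limma adjusted p = 0.152). *Cd28* (chromosome 1, 60773644 to 60830203 of mm9) lies close to the targeted *Ctla4* (60943844 to 60972676), and a part of this position was not tested. Of the called genes, *Wnt10a* (74838090 to 74850753), *C130026I21Rik* (84989265 to 85267141) and *Cr2* (196963005 to 197002909) are also on chromosome 1, farther away. A part of their position was not tested. *Cd247*, the zeta chain of the same receptor complex as *Cd3g*, was at 24.5, 9.57 and 18.5 normalized counts in control and 20.4, 17.5 and 19.0 in IgMneg libraries, with overlapping groups. *Foxp3* was at 13.3, 0 and 6.62 normalized counts in control and 4.85, 10.3 and 3.35 in IgMneg libraries, and *Cd2*, the most abundant of the 9, had a log2 fold change of -0.01. Apart from *Foxp3* in control library 2, each of the 9 had reads in all 6 libraries. The gate for IgMneg cells took B cells that were negative for CD3 and for myeloid markers. The part of T-cell RNA in the rise of these genes was not tested, and in bulk libraries more cells of a kind and more RNA per cell cannot be told apart.

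The largest falls among the 11 genes were those of *Pirb*, *Dnah8* and *Wnt10a*, which encode an inhibitory receptor, a dynein and a secreted ligand. *Pirb* encodes a receptor of B and myeloid cells that binds MHC class I and inhibits signaling (chromosome 7, 3663011 to 3671993 of mm9). It had 322, 273 and 375 normalized counts in control and 31.0, 127 and 30.7 in IgMneg libraries, of which library 2 was the highest. Reads that *Pirb* shares with the closely related *Pira* genes may be counted for either. The log2 fold change was -2.67 (standard error 0.39, limma adjusted p = 0.00337, DESeq2 adjusted p = 0.0507). *Dnah8* encodes an axonemal dynein heavy chain (chromosome 17, 30761299 to 31012209) and was at 507, 464 and 557 normalized counts in control and 138, 147 and 103 in IgMneg libraries, a log2 fold change of -1.98 (standard error 0.18, limma adjusted p = 2.34e-05). *Sfi1*, which encodes a centrin-binding centrosome protein (chromosome 11, 3031853 to 3093466), was at 998, 895 and 1107 normalized counts in control and 410.2, 326 and 278 in IgMneg libraries, a log2 fold change of -1.57. Replicates of both genes lay far closer to each other than to the other group. *Cd36*, a scavenger receptor gene of marginal zone and B-1 cells, had 476, 694 and 475 normalized counts in control and 158, 165 and 247 in IgMneg libraries (log2 fold change -1.53, limma adjusted p = 0.00131). *Wnt10a*, a Wnt ligand gene, fell from 118 ± 23.5 to 33.3 ± 8.67 normalized counts (SD, n = 3 per group). The calcium-binding protein gene *S100a6* had 685, 469 and 317 normalized counts in control and 98.9, 164 and 241 in IgMneg libraries, of which the lowest control and the highest IgMneg library lay nearest. *Klhl14* (Kelch family), *Rasgef1b* (a RAS-family exchange factor) and *Kctd12* (a BTB-domain protein) fell with log2 fold changes of -1.06, -1.06 and -0.80. *Adam19*, which encodes a membrane metalloprotease, fell from 507 ± 35.6 to 259 ± 68.7 normalized counts (SD, n = 3 per group), and limma adjusted p of these 4 genes were 0.0174 to 0.0316. *Kctd12*, the most abundant of these 4, went from 1387 ± 78.8 to 798 ± 89.1 normalized counts (SD, n = 3 per group).

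**Figure D2:**
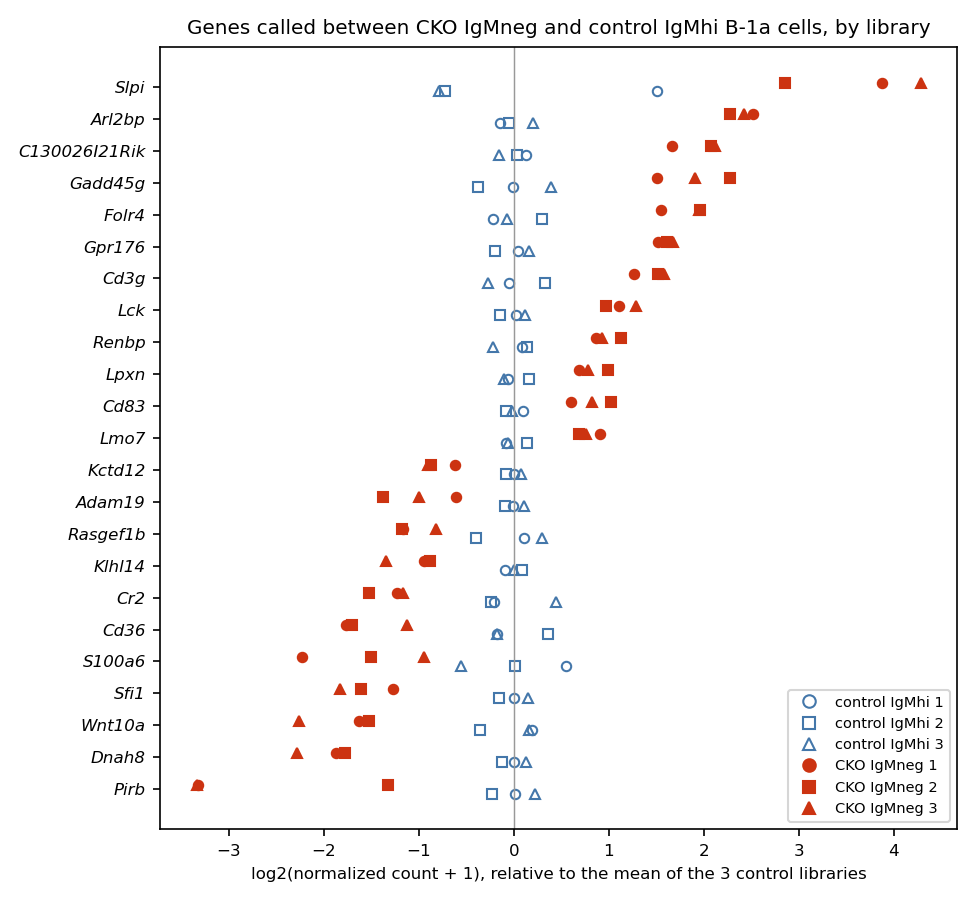
Log2(normalized count + 1) of the 23 called genes in each library, relative to the mean of the 3 control libraries (x axis); open blue symbols are control IgMhi and filled red symbols CKO IgMneg libraries 1, 2 and 3. No red symbol lies among the blue ones of its gene, and *Slpi* (control library 1) and *Pirb* (IgMneg library 2) each have 1 library apart from the others of its group.

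The targeted gene and the genes of the sorting markers were followed next. *Ctla4* was at 42.2, 43.1 and 76.8 normalized counts in control and 48.5, 73.8 and 33.0 in IgMneg libraries, with overlapping groups (log2 fold change -0.08, standard error 0.36, limma adjusted p = 0.938). Reads were summed over the whole gene, inside and outside the floxed part, so this level does not check the genotype. Of 17 genes of the sort and phenotype, *Cr2* fell, none rose and 16 did not pass, with a median log2 fold change of -0.05 that turned positive in 2 of 27 settings and ran from -0.13 (without IgMneg library 3) to 0.0006 (without control library 3) by the library left out. *Cr2* encodes complement receptor CD21, which the control gate selected for at low levels, and was at 838, 819 and 1319.9 normalized counts in control and 411, 335 and 429.7 in IgMneg libraries (log2 fold change -1.31, limma adjusted p = 0.00201). *Cd5* was at 136, 129 and 138 normalized counts in control and 209, 246 and 155 in IgMneg libraries, which did not overlap, and *Spn*, which encodes CD43, at 1420.5, 1116 and 1067 normalized counts in control and 2570.1, 1309 and 1875 in IgMneg libraries. Their log2 fold changes of 0.57 and 0.63 did not pass (limma adjusted p = 0.251 and 0.179), and both products were part of the sort. *Ptprc*, which encodes CD45, had a log2 fold change of 0.08. Of the CTLA-4 ligands, *Cd80* was at 73.4, 101 and 63.5 normalized counts in control and 47.5, 64.3 and 50.3 in IgMneg libraries and *Cd86* at 233, 297 and 285 normalized counts in control and 187, 253 and 288 in IgMneg libraries, with overlapping groups in each. *Cd38* was at 1189, 1235 and 1336 normalized counts in control and 1387, 1585 and 1473 in IgMneg libraries, and *Cd40* at 353, 527 and 475 normalized counts in control and 377, 478 and 446 in IgMneg libraries (limma adjusted p = 0.437 and 0.926). *St6gal1*, which encodes a sialyltransferase, had a log2 fold change of -0.22, and *Slamf1*, which encodes CD150, one of 0.23, from 64.5, 67.0 and 61.8 normalized counts in control and 56.3, 61.1 and 126 in IgMneg libraries.

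Among 24 genes that mark B-1a cells, *Cd36* fell, none rose and 23 did not pass, with a median of -0.02 on the log2 scale whose sign turned in 7 of 27 settings and which ran from -0.14 (without control library 2) to 0.04 (without control library 3) by the library left out. The most abundant of these, *Ahnak*, which encodes a large scaffold protein, had a log2 fold change of -0.37. *Tbc1d9* was at 625, 436 and 489 normalized counts in control and 309, 315 and 255 in IgMneg libraries, and the inhibitory receptor gene *Cd300lf* at 158, 211 and 210.0 normalized counts in control and 291, 359 and 394 in IgMneg libraries. Neither pair overlapped, and both genes passed DESeq2 (0.00533 and 0.0149) but not limma (0.0764 and 0.0782). Of 23 genes of marginal zone and follicular B cells, *Cr2* fell, none rose and 22 did not pass. The median log2 fold change of these 23 was -0.29, against 0.01 for all genes, and 18 of 23 were negative. It was -0.11 without control library 3, -0.17 with the Y-linked covariate and -0.19 with libraries thinned to 1 depth. *Notch2*, the receptor that directs marginal zone fate, had 1949.6, 1877 and 2161 normalized counts in control and 1749.6, 1361 and 1315 in IgMneg libraries, and *Cxcr5*, the follicle-homing receptor gene, 2305, 2288 and 2019 normalized counts in control and 1898, 1730.3 and 1984 in IgMneg libraries. Control levels of both were above every IgMneg level, with log2 fold changes of -0.45 and -0.24 that did not pass (limma adjusted p = 0.206 and 0.46). *Cd55*, which encodes a complement regulator, was at 891, 1058 and 943 normalized counts in control and 627, 755 and 491 in IgMneg libraries (DESeq2 adjusted p = 0.046, limma 0.109). *Cd1d1*, which encodes the lipid-presenting CD1d, was at 104, 196 and 134 normalized counts in control and 66.9, 104 and 29.1 in IgMneg libraries, with log2 fold change -1.24 and limma adjusted p = 0.163.

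The B-cell receptor signals through CD79 and the kinases LYN, SYK and BTK, and inhibitory coreceptors oppose it through phosphatases. Of 54 signalosome genes, *Cr2* fell, none rose and 53 did not pass, with 38 negative and a median of -0.18 on the log2 scale (-0.08 with the Y-linked covariate). *Cd79a* was at 2812, 2552 and 2922 normalized counts in control and 1587, 1544 and 2132 in IgMneg libraries, whereas its partner *Cd79b* was at 11160.0, 11270.0 and 10873 normalized counts in control and 10668, 11184 and 11054 in IgMneg libraries. The *Cd79a* libraries did not overlap (log2 fold change -0.67, DESeq2 adjusted p = 0.00976, limma 0.088), and those of *Cd79b* did (-0.02). *Rasgrp1* (RAS activation, -0.56) and *Nfatc1* (calcium-driven transcription, -0.57) had negative log2 fold changes, and *Vav3* (a guanine nucleotide exchange factor, 0.69) and *Tec* (a kinase of the BTK family, 0.50) positive ones. None of these 4 passed limma (adjusted p 0.113 to 0.156). Of 30 genes of inhibitory coreceptors, *Pirb* fell, none rose and 29 did not pass, and the median was 0.05, negative in 4 of 27 settings and 0.0019 without control library 1. The phosphatase gene *Ptpn6*, the most abundant of them, had 4166, 4112 and 4281 normalized counts in control and 4507, 4269 and 4952 in IgMneg libraries. *Fcgr2b*, which encodes the inhibitory Fc receptor, was at 249, 187 and 317 normalized counts in control and 145, 145 and 144 in IgMneg libraries (DESeq2 adjusted p = 0.0323, limma 0.134). *Cd72* was at 1163, 1556 and 1603 normalized counts in control and 2114, 2163 and 2479 in IgMneg libraries (DESeq2 0.0113, limma 0.0889), and *Pdcd1*, which encodes PD-1, at 22.2, 0 and 21.6 normalized counts in control and 71.8, 51.6 and 64.3 in IgMneg libraries (DESeq2 0.0293, limma 0.158). Every IgMneg library was above every control for *Cd72* and *Pdcd1* and below for *Fcgr2b*.

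Genes of B-cell transcription factors lay mostly lower in IgMneg cells, without any passing the test. Limma called 0 of 54 lineage transcription factor genes, with 1 above and 21 below control before adjustment (p under 0.05), and 0 above and 2 below by DESeq2, 0 by edgeR and 0 by voom. The median log2 fold change was -0.31, and 41 of 54 were negative, against 5184 of all 10525 genes. *Ets1* (-0.20) and *Pou2af1* (-0.23), the coactivator OBF-1, were the most abundant. *Bcl11a* was at 293, 339.9 and 408 normalized counts in control and 197, 245 and 199.5 in IgMneg libraries, and *Runx3*, a low gene, at 44.5, 38.3 and 68.4 normalized counts in control and 10.7, 15.9 and 28.5 in IgMneg libraries. *Tbx21*, which encodes T-bet, was at 6.67, 4.79 and 10.1 normalized counts in control and 24.2, 15.9 and 57.0 in IgMneg libraries, the other way. *Tbx21* reached the filter only through IgMneg libraries. Groups did not overlap in these 3 genes, with limma adjusted p of 0.118, 0.171 and 0.215. Limma called 0 of 77 genes that lay down or read activating chromatin marks, with 0 above and 19 below control before adjustment (p under 0.05), and 0 above and 2 below by DESeq2, 0 by edgeR and 0 by voom. *Chd4* and *Nsd1*, the most abundant of these, encode a chromatin remodeler and a histone H3 methyltransferase and had log2 fold changes of -0.11 and -0.25. *Arid1a*, a subunit of the BAF remodeler, was at 538, 632 and 699.6 normalized counts in control and 306, 429.6 and 383 in IgMneg libraries (DESeq2 adjusted p = 0.0142, limma 0.0782). The list median was -0.23, but -0.09 once a fitted dependence of the fold change on gene length and GC was taken out. The 73 genes of repressive marks had a median of -0.07, positive after that removal (0.04) and -0.02 without control library 3 and -0.0037 without IgMneg library 3, with *Kdm5a* at -0.12 and *Trim28* at 0.13, and limma called 0, with 2 above and 3 below control before adjustment (p under 0.05) and 0 by DESeq2, edgeR and voom. Across 10350 genes the log2 fold change fell with exon length (Spearman's rho -0.234, as a description over genes that share 6 libraries), and the median exon length was 7501 bases in the list of activating marks against 3722 in all genes. Before adjustment, 6.64% of all genes lay above and 6.95% below control, the shares for the counts of these lists.

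The genes that precursor B cells use to build their receptor include 4 that were seen in IgMneg libraries and hardly in control. *Dntt* encodes the enzyme that adds nucleotides to V(D)J junctions, *Rag1* a subunit of the recombinase, and *Vpreb1* and *Igll1* the surrogate light chain. The sequences before their start sites are shown because the 4 genes have the same order of libraries. They are 250 bases of GRCm38.p6 from RefSeq, 5′ to 3′, with CAGGTG or its reverse complement CACCTG, an E-box, in capitals.
Rag1, chr2:101649533-101649782, minus strand: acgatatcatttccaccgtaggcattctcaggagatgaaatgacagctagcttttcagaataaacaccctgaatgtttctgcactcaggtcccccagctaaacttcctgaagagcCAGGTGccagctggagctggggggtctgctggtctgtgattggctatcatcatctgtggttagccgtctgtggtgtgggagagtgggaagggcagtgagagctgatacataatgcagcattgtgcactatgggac
Vpreb1, chr16:16869256-16869505, minus strand: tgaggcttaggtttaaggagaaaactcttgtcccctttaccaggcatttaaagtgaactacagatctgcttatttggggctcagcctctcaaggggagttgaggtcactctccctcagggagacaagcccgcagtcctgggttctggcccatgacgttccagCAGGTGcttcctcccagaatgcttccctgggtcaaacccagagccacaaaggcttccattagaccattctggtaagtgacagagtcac
Igll1, chr16:16863986-16864235, minus strand: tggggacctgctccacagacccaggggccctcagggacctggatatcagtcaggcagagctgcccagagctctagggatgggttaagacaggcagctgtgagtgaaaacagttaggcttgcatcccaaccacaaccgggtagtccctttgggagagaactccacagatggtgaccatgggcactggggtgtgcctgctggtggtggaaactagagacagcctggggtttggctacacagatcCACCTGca
Dntt, chr19:41029025-41029274, plus strand: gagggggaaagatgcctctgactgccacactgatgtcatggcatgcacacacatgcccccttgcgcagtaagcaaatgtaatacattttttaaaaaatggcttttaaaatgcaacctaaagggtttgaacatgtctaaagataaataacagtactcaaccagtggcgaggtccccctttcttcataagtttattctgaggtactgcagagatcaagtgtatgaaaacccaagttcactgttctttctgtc
One copy is in each window but that of *Dntt*, and 17.2% of 32851 promoter windows of this length hold the letters on either strand. The 4 genes were chosen after their values were seen, and a part of this E-box in their levels was not tested.

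*Dntt* had 0, 0 and 0.882 normalized counts in control libraries 1, 2 and 3 and 210.4, 4.76 and 82.1 in IgMneg libraries 1, 2 and 3. *Rag1* had 0, 0 and 0.441 normalized counts in control and 60.1, 1.59 and 26.3 in IgMneg libraries, and *Vpreb1* had 0, 0 and 1.76 normalized counts in control and 72.7, 3.97 and 25.1 in IgMneg libraries. *Igll1* was at 0 in all controls and at 59.2, 0 and 50.3 in IgMneg libraries. Its mean was at least 35.6-fold higher against a floor of 3 reads over the 3 controls, a bound that covers counting error only. IgMneg libraries 1 and 3 held nearly all of these reads, and library 2 was close to the controls. Over the 3 libraries of a group, IgMneg reads were 370 for *Dntt*, 111 for *Rag1*, 125 for *Vpreb1* and 151 for *Igll1*, and the control reads 2, 1, 4 and 0. All 4 genes were chosen after their values were seen and reached the filter only through IgMneg libraries 1 and 3, so their differences are a description and not a test. By pooled reads the level was 133 times that of control for *Dntt* (95% counting interval 36.5 to 1100), 79.6 times for *Rag1* (14.0 to 3170) and 22.4 times for *Vpreb1* (8.54 to 83.5), with exact binomial intervals that cover counting error only and not the spread of libraries. None of the 4 passed limma (adjusted p 0.0782 to 0.297). Reads of *Vpreb1* may be split with its near-identical copy *Vpreb2*. Of 22 genes of V(D)J recombination and precursor B cells, limma called 0, with 5 above and 4 below control before adjustment (p under 0.05), and 1 above and 1 below by DESeq2, 1 by edgeR and 0 by voom. Among all genes, 6.64% lay above and 6.95% below before adjustment. The list median was 0.16, also with *Igll1* at its bound. It was -0.07 without IgMneg library 3, -0.06 without IgMneg library 1 and 0.01 without control library 3 and -0.07 with a filter of 50, and it includes the 4 genes above, so it is a description. The most abundant, *Cd24a*, which encodes the heat stable antigen, was at 3143, 2738 and 3131 normalized counts in control and 1742, 1577 and 2815 in IgMneg libraries, and *Smarca4*, a remodeler ATPase, at 1407, 1274 and 1469 normalized counts in control and 1332, 1098 and 1043 in IgMneg libraries.

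**Figure D3:**
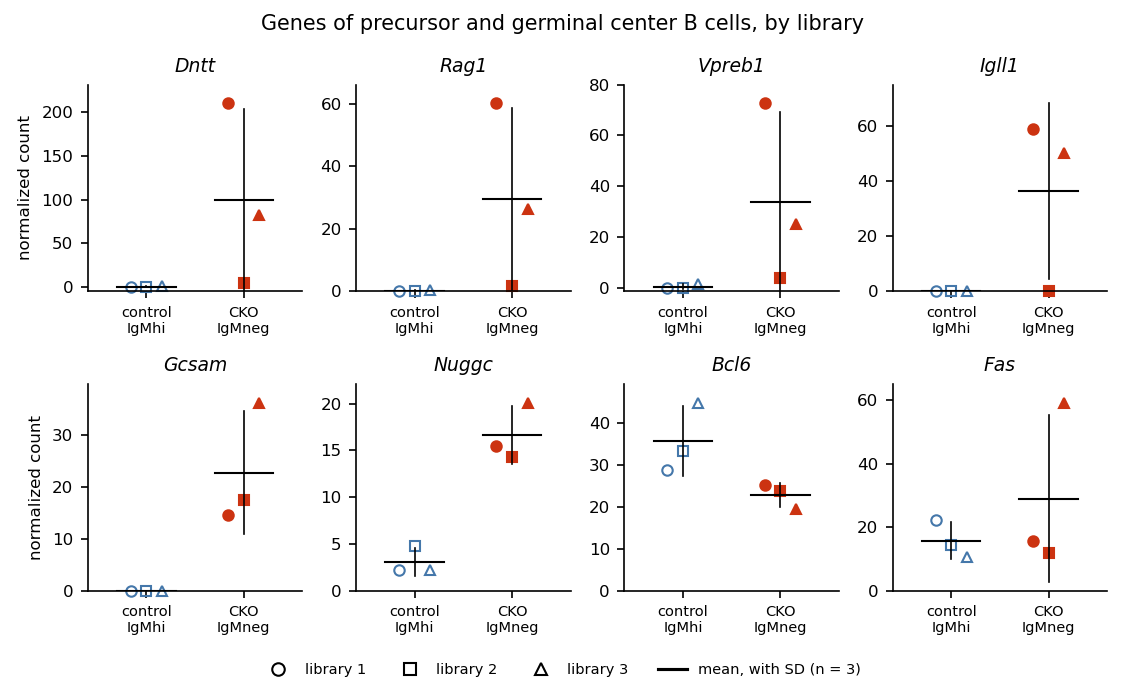
Normalized counts of 4 precursor and 4 germinal center genes in each library; open blue symbols are control IgMhi and filled red symbols CKO IgMneg B-1a cells, with the mean and SD (n = 3). *Dntt*, *Rag1*, *Vpreb1* and *Igll1* are high in IgMneg libraries 1 and 3 and low in library 2, the highest *Gcsam*, *Nuggc* and *Fas* points are IgMneg library 3, and *Bcl6* is lower in every IgMneg library than in any control.

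Germinal center genes were then taken, since FAS and BCL6 mark that state. Of 37 genes, *Cd83* rose, none fell and 36 did not pass, with a median of 0.09 on the log2 scale, also with *Gcsam* at its bound, that was -0.02 without IgMneg library 3, 0.04 without control library 1 and 0.18 without IgMneg library 2. *Cd83* encodes a receptor of activated B cells and dendritic cells that keeps MHC class II at the surface. It had 1647, 1455 and 1522 normalized counts in control and 2342, 3121 and 2728 in IgMneg libraries, which lie apart (log2 fold change 0.82, standard error 0.15, limma adjusted p = 0.0208). *Gcsam*, a germinal center signaling adaptor gene, was at 0, 0 and 0 normalized counts in control and 14.5, 17.5 and 36.3 in IgMneg libraries. *Nuggc*, a germinal center GTPase gene, was at 2.22, 4.79 and 2.21 normalized counts in control and 15.5, 14.3 and 20.1 in IgMneg libraries. Neither gene overlapped between groups but both are low, and neither passed limma (adjusted p = 0.109 and 0.269). The mean of *Gcsam* was at least 22.2-fold higher against the floor of 3 reads over the controls, a bound that covers counting error only. Both genes were chosen after their values were seen and reached the filter only through IgMneg libraries, so these values are a description. *Bcl6* was at 28.9, 33.5 and 45.0 normalized counts in control and 25.2, 23.8 and 19.6 in IgMneg libraries, lower in every IgMneg library, with a log2 fold change of -0.61 that did not pass (0.521). *Fas* was at 22.2, 14.4 and 10.6 normalized counts in control and 15.5, 11.9 and 59.2 in IgMneg libraries, high in IgMneg library 3 only. *Nedd4*, a ubiquitin ligase gene, was at 549, 536 and 616 normalized counts in control and 287, 258 and 425 in IgMneg libraries (DESeq2 0.0165, limma 0.0782). The most abundant of the list, *Pou2af1* and the ETS-factor gene *Spib*, had log2 fold changes of -0.23 and -0.08. Of 25 genes of class switching and hypermutation, limma called 0, with 3 above and 1 below control before adjustment (p under 0.05) and 0 by DESeq2, edgeR and voom. Their median was 0.04, negative in 4 of 27 settings and from -0.06 (without IgMneg library 1) to 0.09 (without IgMneg library 3) by the library left out, and the abundant repair genes *Parp1* and *Atm* were at 0.08 and 0.13. Among all genes, 6.64% lay above and 6.95% below control before adjustment. *Batf*, a transcription factor gene that class switching needs, was at 202, 201 and 184 normalized counts in control and 239, 365 and 319.6 in IgMneg libraries (limma adjusted p = 0.159).

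*Igj*, *Xbp1* and *Sdc1*, genes of antibody secretion, had lower levels in all IgMneg libraries than in control libraries 1 and 2, but not than in control library 3. *Igj* encodes the J chain that joins IgM into pentamers, and *Txndc5* a protein disulfide isomerase of the endoplasmic reticulum. *Igj* had 22008, 18173 and 4898 normalized counts in control libraries 1, 2 and 3 and 4243, 3100.0 and 6647 in IgMneg libraries. Control library 3 lay among the IgMneg libraries, for a log2 fold change of -1.50 (standard error 0.40, limma adjusted p = 0.131). *Xbp1*, the transcription factor gene of secretory expansion, was at 2285, 1556 and 784 normalized counts in control and 715, 737 and 1094 in IgMneg libraries, and *Sdc1*, which encodes CD138, at 562, 345 and 163 normalized counts in control and 243, 123 and 199 in IgMneg libraries, with the same overlap. *Txndc5* was at 3842, 3049.7 and 2023 normalized counts in control and 1830.1, 1578 and 1912 in IgMneg libraries, and *Prdm1*, which encodes BLIMP-1, at 200.1, 249 and 199.8 normalized counts in control and 109, 135 and 111 in IgMneg libraries. These 2 did not overlap between groups and passed DESeq2 (0.0262 and 0.03) but not limma (0.135 and 0.0861). Of 29 genes of plasma cells and secretion, limma called 0, with 1 above and 12 below control before adjustment (p under 0.05), and 1 above and 2 below by DESeq2, 0 by edgeR and 0 by voom. The median log2 fold change was -0.45, with 24 of 29 negative (-0.29 with the Y-linked covariate). By library, the median deviation of these genes from their mean over 6 libraries was 0.23, 0.33 and -0.19 in control and -0.30, -0.20 and 0.00 in IgMneg libraries 1, 2 and 3. In 60 genes of folding in the endoplasmic reticulum, led by *Hsp90b1* (-0.01) and *Hspa5* (0.38), the median was -0.09 (-0.19 without control library 3 and -0.02 without control library 1), and limma called 0, with 1 above and 9 below control before adjustment (p under 0.05) and 0 by DESeq2, edgeR and voom. The shares of all genes before adjustment were 6.64% above and 6.95% below.

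Genes of MHC class II presentation lay mostly higher in IgMneg cells, and 1 passed the test. Of 25 genes of the MHC class II pathway, *Cd83* rose, none fell and 24 did not pass. The median log2 fold change was 0.22, 21 of 25 were positive, and 10 were higher and 0 lower before adjustment (p under 0.05), where 6.64% of all genes were higher. Libraries did not overlap in 10 genes, all higher, against 9.98% of all genes. The median was 0.14 with totals without *Rn45s* as the scale and 0.41 with the Y-linked covariate. *H2-Eb2* was at 53.4, 91.0 and 81.2 normalized counts in control and 164, 182 and 131 in IgMneg libraries (log2 fold change 1.09, DESeq2 adjusted p = 0.0233, limma 0.0889). The class II chain *H2-Aa* was at 5704, 5644 and 5765 normalized counts in control and 6928, 6721 and 8671 in IgMneg libraries, and its partner *H2-Ab1* at 4277, 4318 and 4344 normalized counts in control and 4673, 5642 and 6204 in IgMneg libraries. Every IgMneg value of these 3 genes was above every control, with log2 fold changes of 0.37 and 0.34 for the last 2 (limma adjusted p = 0.324 and 0.347). *H2-Ea-ps* is annotated as a pseudogene but was at 10084, 11548 and 10801 normalized counts in control and 12749, 15463 and 14435 in IgMneg libraries. Its log2 fold change was 0.39 (limma adjusted p = 0.357), and that of *Cd74*, the invariant chain, was 0.09. *Ciita*, the regulator of class II transcription, was at 1505, 1129.9 and 1799 normalized counts in control and 2169, 1744 and 1850.2 in IgMneg libraries, with overlap. The peptide exchange genes *H2-DMa* (0.22), *H2-DMb1* (0.01) and *H2-DMb2* (0.11) had small log2 fold changes, and *H2-Ob*, a chain of the inhibitor of that exchange, was at 903, 1015 and 1180.5 normalized counts in control and 1302, 1500.0 and 1472 in IgMneg libraries. Reads of *H2-DMb1* and *H2-DMb2*, which are near-identical copies, may be split between them. Of 27 genes of MHC class I loading, led by *B2m* (-0.39) and *H2-D1* (0.06), limma called 0, with 5 above and 2 below control before adjustment (p under 0.05) and 0 by DESeq2, edgeR and voom, and the median was 0.12 (0.0049 without control library 3 and 0.07 without IgMneg library 2).

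**Figure D4:**
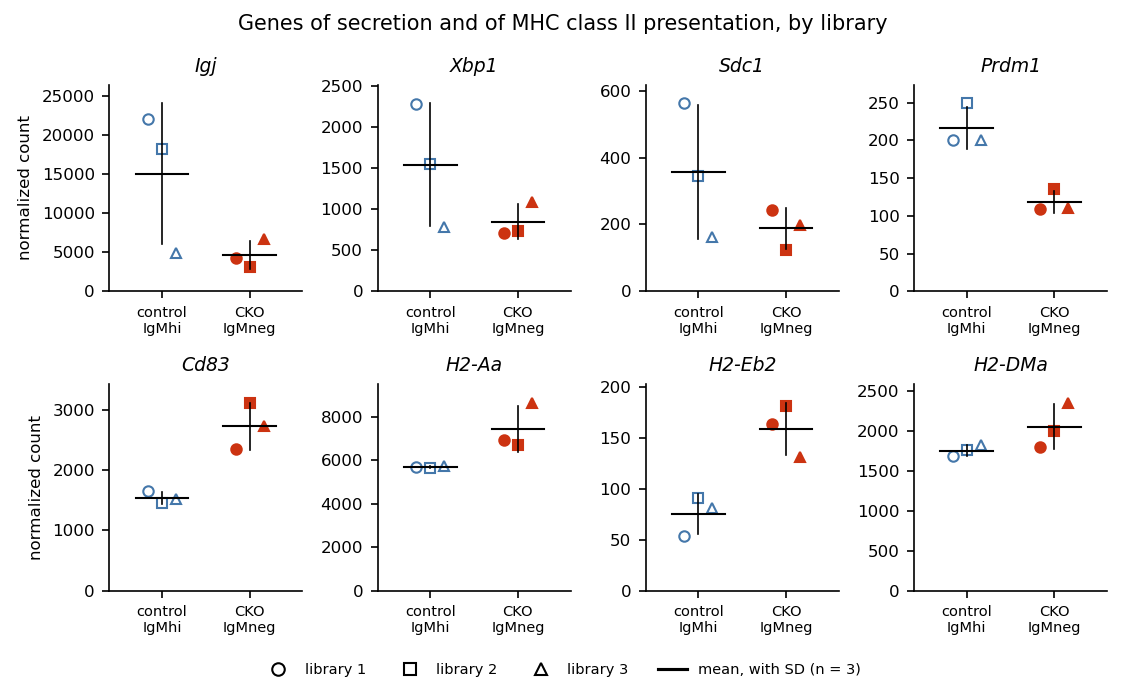
Normalized counts of 4 genes of secretion and 4 of MHC class II presentation in each library; open blue symbols are control IgMhi and filled red symbols CKO IgMneg B-1a cells, with the mean and SD (n = 3). For *Igj*, *Xbp1* and *Sdc1* control library 3 lies among the IgMneg libraries, while *Prdm1* is lower and *Cd83*, *H2-Aa* and *H2-Eb2* are higher in every IgMneg library.

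The proteasome cuts proteins into peptides, and lysosomal enzymes break down what is taken up. Of 51 proteasome genes limma called 0, with 20 above and 0 below control before adjustment (p under 0.05), and 2 above and 0 below by DESeq2, 0 by edgeR and 0 by voom. Their median log2 fold change was 0.29, 45 of 51 were positive and 21 did not overlap, all higher, where 50.75% of all genes were positive and 9.98% did not overlap and lay higher. *Psmb8*, an immunoproteasome subunit, and *Psmb1*, the most abundant, had log2 fold changes of 0.39 and 0.50. *Psma4* was at 905, 1044 and 793 normalized counts in control and 1143, 1564 and 1449.6 in IgMneg libraries and *Psmd10* at 138, 158 and 131 normalized counts in control and 209, 267 and 251 in IgMneg libraries (DESeq2 adjusted p = 0.03 and 0.0351, limma 0.122 and 0.1). Of 67 lysosomal genes limma called 0, with 13 above and 0 below control before adjustment (p under 0.05) and 0 by DESeq2, edgeR and voom. The lysosomal median was 0.16 (0.08 with totals without *Rn45s* as the scale), with the sphingolipid activator gene *Psap* at -0.02 and the protease gene *Ctss* at 0.09. Of 45 cytosolic chaperone genes, led by *Hspa8* (0.51) and *Ppia* (0.32), limma called 0, with 15 above and 0 below control before adjustment (p under 0.05) and 0 by DESeq2, edgeR and voom, and the median was 0.25. The 77 cytosolic ribosomal protein genes had a median of 0.22, with *Rplp0* at 0.37 and *Rpsa* at 0.31, and limma called 0, with 5 above and 2 below control before adjustment (p under 0.05) and 0 by DESeq2, edgeR and voom. Their library medians were -0.14, 0.12 and -0.28 in control and -0.32, 0.37 and 0.22 in IgMneg libraries, so IgMneg library 1 was the lowest of the 6, and the list median ran from 0.05 (without IgMneg library 2) to 0.43 (without IgMneg library 1) by the library left out. The 77 genes of oxidative phosphorylation, with *Atp5a1* at 0.31 and *Atp5b* at 0.29, had a median of 0.17, which was 0.03 with the length and GC trend removed and ran from 0.04 (without IgMneg library 2) to 0.32 (without IgMneg library 1) by the library left out, and limma called 0, with 7 above and 1 below control before adjustment (p under 0.05) and 0 by DESeq2, edgeR and voom. The ribosomal median was 0.11 without that trend and 0.02 with quantile normalization. Before adjustment, 6.64% of all genes lay above and 6.95% below control. The counts of cytosolic ribosomal protein genes, 5 above and 2 below of 77, do not exceed these shares.

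**Figure D5:**
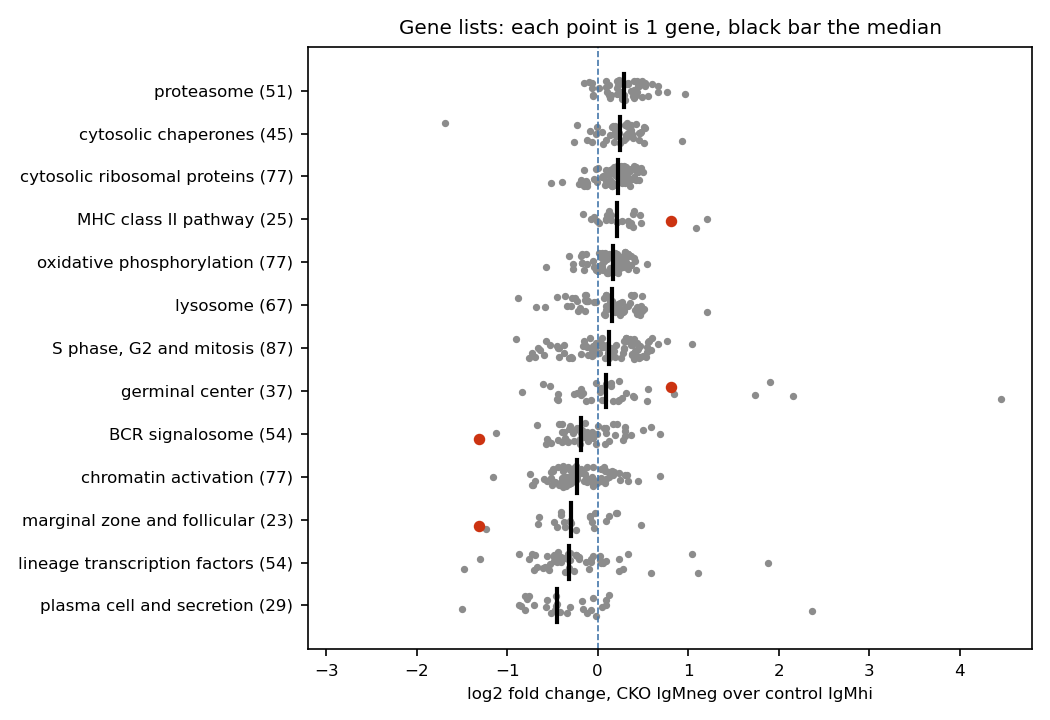
Log2 fold change of CKO IgMneg over control IgMhi B-1a cells for the genes of 13 lists, with the number of genes tested in parentheses; each point is 1 gene, red points are called, black bars are medians and the dashed line is the median of all 10525 genes. Medians run from -0.45 for plasma cell and secretion to 0.29 for the proteasome.

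Cytokine receptors, homing receptors, early response genes and the cell cycle had list medians from -0.03 to 0.12 on the log2 scale. Of 47 genes of JAK-STAT and cytokine signaling limma called 0, with 5 above and 5 below control before adjustment (p under 0.05), and 2 above and 0 below by DESeq2, 0 by edgeR and 0 by voom, and their median was 0.08, negative in 8 of 27 settings, running from -0.09 (without control library 2) to 0.09 (without control library 3) by the library left out. *Tgfbr2* (-0.01) and *Jak1* (-0.12) were the most abundant. *Ifngr2*, a chain of the interferon gamma receptor, was at 242, 249 and 311 normalized counts in control and 411, 455 and 473 in IgMneg libraries, and *Lifr*, the LIF receptor, at 13.3, 9.57 and 10.1 normalized counts in control and 30.1, 44.5 and 58.7 in IgMneg libraries (DESeq2 adjusted p = 0.0262 and 0.03, limma 0.0782 and 0.109). Of 38 homing genes limma called 0, with 4 above and 4 below control before adjustment (p under 0.05), and 1 above and 0 below by DESeq2, 0 by edgeR and 0 by voom, and the median was 0.08, negative in 3 of 27 settings and running from -0.02 (without control library 2) to 0.05 (without control library 3) by the library left out, with the G protein gene *Gnai2* at 0.11 and the integrin gene *Itga4* at -0.33. *Ccr7*, the receptor that leads cells to T-cell zones, was at 545, 479 and 584 normalized counts in control and 723, 856 and 674 in IgMneg libraries, and *Gpr183*, which leads activated B cells to the outer follicle, at 342, 311 and 319 normalized counts in control and 425, 481 and 670.0 in IgMneg libraries. Groups did not overlap in *Ifngr2*, *Lifr*, *Ccr7* and *Gpr183*. Of 38 early response genes, *Cd83* rose, none fell and 37 did not pass, with a median of -0.03, positive in 2 of 27 settings, that ran from -0.25 (without control library 2) to 0.17 (without control library 3) by the library left out. *Egr1*, a zinc finger gene induced by receptor signals, was at 169, 115 and 114 normalized counts in control and 59.2, 58.0 and 59.2 in IgMneg libraries, lower in every IgMneg library (log2 fold change -1.13, DESeq2 adjusted p = 0.0134, limma 0.0782), while *Btg1* and *Mcl1*, the most abundant, had 0.01 and 0.00. Of 87 cell cycle genes (S phase to mitosis) limma called 0, with 11 above and 2 below control before adjustment (p under 0.05) and 0 by DESeq2, edgeR and voom, and the median was 0.12. It ran from 0.03 (without control library 1) to 0.30 (without IgMneg library 2) by the library left out and was 0.35 with the Y-linked covariate. *Mki67*, which encodes Ki-67, was at 347, 618 and 653 normalized counts in control and 326, 253 and 452 in IgMneg libraries, *Pcna* had a log2 fold change of 0.40 and *Smc4* one of 0.42. Library medians of the cell cycle list were -0.27, -0.11 and 0.17 in control and 0.17, -0.19 and 0.22 in IgMneg libraries, so the groups overlap. For the counts of these lists, the shares of all genes before adjustment were 6.64% above and 6.95% below control.

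Tests here rest on 3 libraries per group, and the sources used here do not say whether a library pooled mice, so p-values measure the spread between these libraries. Lists that moved little or did not pass may still hold differences that 3 libraries a group cannot show.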

How the data were processed

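RNA-seq values of 3 control IgMhi and 3 CKO IgMneg libraries were taken from the deposited table. The authors aligned reads to mm9 with TopHat2 2.0.13, counted them by HTSeq 0.6.0 (union mode) and normalized with DESeq2 in R 3.3.1, so the deposited signal is reads divided by a size factor. Within 0.01 read, 100% of values were whole multiples of a step, from which reads were recovered. Strand use in counting is not given in the sources used here. Names matched GENCODE vM1 (or RefSeq synonyms) for 98.16% of 10783 genes, and 17 names had turned into dates. Some genes are not reported here. Table values of 2 CKO IgMhi libraries were not used.

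In R 4.3.3, limma 3.58.1 with a trend was fitted to log2(normalized count + 1), two-sided, with Benjamini-Hochberg adjustment at 0.05. The study used DESeq2. Here DESeq2 1.42.0, edgeR 4.0.16 and voom on recovered reads were alternatives, beside scalings, pseudocounts of 0.5 and 5, filters, variance models, thinning, splines (4 degrees of freedom) on exon length and GC content, sex settings and each library left out. The fit was also run on simulated counts with independent noise and known changes, which does not test the calls in these libraries. Replicates of a group differed by a chi-square per gene of 9.94 to 119, more than counting error.

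Members and gene lists were chosen with earlier results of these data known. Genes named are up to 10 risen and 10 fallen called genes with the largest log2 fold change (mean of at least 50 in the higher group, no overlap), called genes with a mean of at least 1000, per list up to 4 called members or the 2 of highest level, genes of the sort, and library checks. Other genes named, such as *Lmo7*, *Dntt* and those given with a DESeq2 adjusted p, were chosen after their values were seen.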

Additional observations from a re-analysis of the deposited data

How the results depend on the processing

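The 23 calls (12 risen, 11 fallen) became 5 (3 and 2) for limma without the trend, 35 (19 and 16) after splines on length and GC, 104 (19 and 85) with the Y-linked level as a covariate, 113 (48 and 65) with array weights and 119 (60 and 59) by DESeq2. With 1 library left out they ranged from 12 to 47 (6 to 27 risen, 5 to 20 fallen), fewest without IgMneg library 2 and most without IgMneg library 1. TMM scaling, each pseudocount, dropping the filter and a filter of 50 normalized counts kept the same 23 genes, and edgeR called 29 with all 23 among them. Scaling to total counts gave 14 risen and 16 fallen, and to totals without *Rn45s* 9 and 12, where all genes had medians of 0.05 and -0.08. Controls and CKO mice are different animals, and deviations of libraries with the same number correlated by 0.086, 0.108 and 0.032 across genes. Each library correlated best with its own number. These values are small, and deviations from a mean of 3 libraries depend on each other, so they do not establish a pairing. With the replicate block 152 genes passed (73 and 79), and 127 (64 and 63) with the block and the length and GC splines. No called gene changed direction, and 516 of 620 settings of the called genes kept the call. Medians of the plasma cell, lineage transcription factor, marginal zone, chromatin activation, MHC class II and proteasome lists kept their sign in all 27 settings. So did medians that came close to 0 in a setting, such as MHC class I loading (0.0049) and cytosolic ribosomal proteins (0.02). A kept sign thus does not set a list apart, and all settings draw on the same 6 libraries. The cause of the changes between settings was not tested. Control library 2, at a median of 31 reads, limits what can be seen in low genes.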

Other observations

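Other gene lists are given as values. Of 24 Toll-like receptor pathway genes 18 were negative, with a median log2 fold change of -0.17, and limma called 0, with 0 above and 5 below control before adjustment (p under 0.05) and 0 by DESeq2, edgeR and voom. Of 77 mitochondrial ribosomal protein genes 65 were positive, with a median of 0.21 (0.11 after removal of the length and GC trend), and limma called 0, with 7 above and 1 below control before adjustment (p under 0.05), and 0 above and 1 below by DESeq2, 0 by edgeR and 0 by voom. Of 21 glycolysis genes 16 were positive (median 0.13), and limma called 0, with 6 above and 0 below control before adjustment (p under 0.05), and 1 above and 0 below by DESeq2, 0 by edgeR and 0 by voom. Of 54 interferon response genes 31 were positive, and limma called 0, with 8 above and 2 below control before adjustment (p under 0.05) and 0 by DESeq2, edgeR and voom. Their median was 0.11 and -0.07 without control library 1. Before adjustment, 6.64% of all genes lay above and 6.95% below control.

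A few genes that passed DESeq2 but not limma, edgeR or voom, chosen after their values were seen, had groups that did not overlap. Of these, *Apoe* passed in 1 of 27 settings. *Ms4a6c* and *Ms4a4c* encode membrane proteins of the MS4A family, related to CD20. *Ms4a6c* had 445, 412 and 365 normalized counts in control and 512, 696 and 748 in IgMneg libraries, and *Ms4a4c* had 425, 579 and 501 normalized counts in control and 665, 905 and 742 in IgMneg libraries (DESeq2 adjusted p = 0.03 and 0.0399, limma 0.108 and 0.123). *Ms4a1*, the gene of CD20 itself, had 12623, 15401 and 11874 normalized counts in control and 12527, 14160.0 and 10847 in IgMneg libraries, with overlap. *Apoe*, a lipid carrier gene, had 8937, 8392 and 8403 normalized counts in control and 10669, 12103 and 12126 in IgMneg libraries (DESeq2 0.0328, limma 0.284), and the integrin gene *Itga6* had 216, 163 and 162 normalized counts in control and 398, 309 and 254 in IgMneg libraries (DESeq2 0.0365, limma 0.0961). *Ly6d* and *Cd37*, surface genes of B cells, had log2 fold changes of -0.67 and -0.56 (DESeq2 0.03 and 0.03, limma 0.0961 and 0.108). *Lyz2*, a myeloid lysozyme gene that passed neither test, had 11.1, 101 and 53.4 normalized counts in control and 3.88, 20.6 and 256 in IgMneg libraries, highest in IgMneg library 3.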
